A study of Oryza sativa with 6 samples.

Results

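The rice genes described here are PBZ1, the trypsin inhibitor gene RBTI and the chitinase genes Cht8, Cht3 and Cht6. They were chosen by name: a probe set belonged when its 1 annotated gene carried one of these names as symbol or synonym in the RefSeq gene table of the rice assembly ASM3414082v1. This gave 8 of 57258 rice probe sets, for 5 genes, each of which is an LOC entry of that table: PBZ1 (LOC4352491), RBTI (LOC9271230), Cht8 (LOC4349267, also listed as Cht2), Cht3 (LOC4342114) and Cht6 (LOC4329920). PBZ1, RBTI and Cht6 had 1 probe set each, Cht3 had 2 and Cht8 had 3. The names were picked with earlier results of these data known.

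RNA was measured on 6 Affymetrix rice arrays from leaves of 2-week-old seedlings of the variety Zhonghua 11. The transgenic plants expressed antisense OsPDCD5 (its name refers to programmed cell death) and the nontransgenic plants served as control. Sampling took place without NaCl, called before treatment here, and after seedlings had spent 20 min or 3 h in dishes of medium holding 200 mM NaCl. Every one of the 6 groups was 1 array from 10 plants, so no value here has a replicate and the number of arrays limits its precision. The promoter behind the antisense construct and the number of independent transgenic lines are not given in the sources used here, and OsPDCD5 itself is not analysed here. No group was moved to new dishes without NaCl, so salt, transfer and elapsed time cannot be told apart.

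PBZ1 belongs to the PR-10 family of small intracellular pathogenesis-related proteins and was named for its induction by probenazole, a compound that primes rice against blast disease. Chitinases are secreted or vacuolar enzymes that cut chitin, a polymer of fungal cell walls, and several are classed as pathogenesis-related proteins. Bowman-Birk inhibitors such as RBTI block trypsin-like proteases and are known in grasses as wound- and defence-related proteins. In rice leaves, genes of these families are commonly used as readouts of defence.

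The arrays carried the transcripts of the labelled tissue. Among 5 leaf marker genes with a probe set, 4 (RCA, CAB2R, RBCS and PORB) had signals of 2312 or more on every array, while the probe set of RBCS1 lay between 1.68 and 27.6. The summed signal of the 5 leaf markers was 92915 in nontransgenic leaves before treatment and between 117597 and 129533 on the other arrays. Of 5 root marker genes, the silicon exporter gene Lsi2 lay between 1 and 1.53, but the silicon channel gene Lsi1 had signals of 537 to 1101, and the summed root signal was 766 to 1365. PORB, an enzyme of chlorophyll synthesis, was itself higher in transgenic leaves, by 0.75 ± 0.13 on the log2 scale (limma adjusted p = 0.00981). The part of these levels in the results below was not tested. Because leaves hold several cell types, fewer cells of a type and less RNA per cell cannot be told apart.

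All values are MAS5 signals, the authors' summary of an Affymetrix probe set in arbitrary units on the linear scale, unless a log2 value is named. Differences and their errors are on the scale of log2(signal + 16). They come from a limma fit of genotype and stage to all 28629 probe sets above a signal filter, with Benjamini-Hochberg adjustment over all of them and a threshold of 0.05. A genotype difference is transgenic minus nontransgenic over the 3 stages, and a salt change is 20 min or 3 h minus before over both genotypes. The standard error (SE) measures how far single arrays depart from the additive pattern, not a spread between replicate samples. All 8 probe sets passed the filter.

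PBZ1 and RBTI were lower in transgenic leaves, with log2 differences of -4.05 and -4.25, and so was Cht3 by 1 of its 2 probe sets. Cht6 rose at 20 min and Cht3 rose at 3 h by the same 1 probe set, each tested over both genotypes together. The bright probe sets of Cht8 had similar signals in the 2 genotypes before treatment and log2 salt changes of opposite sign, which have no test. For genotype, 3 of 8 probe sets (of 3 of the 5 genes) were called lower and none higher, where 10.6% of all tested probe sets were called lower and 9.94% higher. At 20 min 1 probe set was called, higher, against 0.789% of all called higher and 0.157% lower. At 3 h 1 was called, higher, against 3.44% higher and 2.58% lower. The median over the 8 probe sets was -1.50 for genotype, -0.31 at 20 min and 0.55 at 3 h, where the median over all probe sets was 0.00, 0.01 and 0.01.

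**Figure D1:**
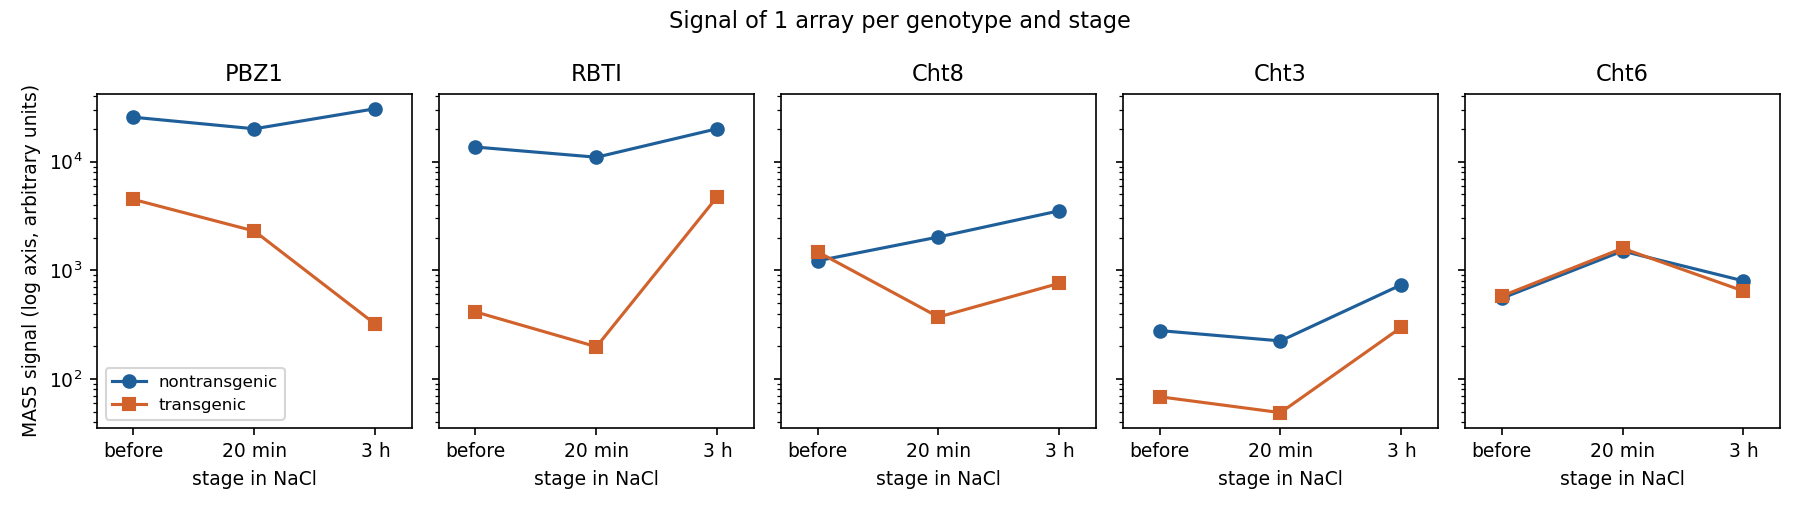
MAS5 signal (log axis, arbitrary units) of 1 probe set per gene at the 3 stages; circles are nontransgenic and squares transgenic leaves, 1 array per point. PBZ1 in transgenic leaves went from 4494 to 319 while RBTI went from 414 to 4777, and the Cht6 lines nearly coincide.

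PBZ1 had very bright signals in nontransgenic leaves at every stage. The signal was 25688 before treatment, 20104 at 20 min and 30779.6 at 3 h, where the highest signal of any rice probe set on these arrays was 51221. In transgenic leaves it was 4494 before treatment, 2297 at 20 min and 319 at 3 h. All 3 transgenic arrays lay below all 3 nontransgenic arrays, and the transgenic signal was smaller at each later stage.

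The ratio of nontransgenic to transgenic PBZ1 signal was 5.72 before treatment, 8.75 at 20 min and 96.6 at 3 h. Over the 3 stages the genotype difference was -4.05 ± 0.70 (log2 difference ± SE, limma adjusted p = 0.00984), and it was negative in 3 of 3 pairs of arrays. Without either array of the 3 h pair it was -2.82, still called (adjusted p = 1.61e-04 without the nontransgenic and 1.92e-04 without the transgenic array). Fitted without limma's intensity trend, the call was lost (adjusted p = 0.0551).

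The salt change of PBZ1 differed in size and sign between the genotypes at 3 h. It was 0.26 on the log2 scale in nontransgenic and -3.75 in transgenic leaves, a difference of response of -4.01 that ranked 3 of 28629 probe sets from the lowest. Relative to the array before treatment, the transgenic 3 h signal was 0.0709 times as high. At 20 min both genotypes had negative changes, -0.35 in nontransgenic and -0.96 in transgenic leaves, the latter 0.511 times the signal before treatment. The shared salt change was -0.66 ± 0.85 at 20 min and -1.75 ± 0.85 at 3 h (limma adjusted p = 0.815 and 0.297). Neither passed the threshold, and without the transgenic 3 h array the 3 h value was 0.11. Differences of response take all remaining degrees of freedom and have no test.

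RBTI, the trypsin inhibitor gene, had the largest ratios between the genotypes among the 5 genes before treatment and at 20 min, but not at 3 h. Its nontransgenic signal was 13654 before treatment, 10999 at 20 min and 20151 at 3 h. In transgenic leaves it was 414 before treatment, 198 at 20 min and 4777 at 3 h. Again no transgenic array reached the lowest nontransgenic one, and the transgenic 3 h array stood far above the other transgenic arrays.

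The nontransgenic to transgenic ratio of RBTI was 33.0 before treatment, 55.6 at 20 min and 4.22 at 3 h. The genotype difference was -4.25 ± 0.62 (limma adjusted p = 0.00552), negative in 3 of 3 pairs, and stayed called without each single array, ranging from -5.34 to -3.53. It was -5.34 without either 3 h array. Leaving out either array of a stage gave the same estimate, so the 6 fits hold 3 distinct values. In the transgenic line the 3 h signal was 11.5 times that before treatment (log2 change 3.48), against 1.48 times (0.56) in the nontransgenic line. This difference of response, 2.92, was 18th highest of 28629 and has no test. The shared 3 h change of 2.02 ± 0.76 did not pass the threshold (limma adjusted p = 0.185) and was 0.39 without the transgenic 3 h array. At 20 min the changes were -0.31 in nontransgenic and -1.01 in transgenic leaves.

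PBZ1 and RBTI parted at 3 h in the transgenic line. Between 20 min and 3 h the transgenic log2 change was -2.79 for PBZ1 and 4.49 for RBTI. In nontransgenic leaves the corresponding values were 0.61 and 0.87, with the same sign for both genes. The RBTI probe set is of the kind that Affymetrix marks as matching several transcripts, so its signal may hold more than 1 gene.

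Cht8 was followed by 3 probe sets, 2 of them bright. The first bright probe set had nontransgenic signals of 1222 before treatment, 2027 at 20 min and 3534 at 3 h. In transgenic leaves the signals were 1482, 371 and 759.6 at the same stages. The genotypes were close before treatment, and at both times in NaCl the transgenic array was lower.

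For the second bright probe set the nontransgenic signals were 761, 1348 and 2599 and the transgenic ones 802, 297 and 411. The dim probe set had signals of 42.4, 48.9 and 103 in the nontransgenic and of 28.9, 17.9 and 41.0 in the transgenic line. These last signals lie near the added 16, on which the size of their log2 differences depends. The 3 probe sets shared the higher signal in nontransgenic leaves at 3 h and the lower signal in transgenic leaves at 20 min. The 2 bright ones had centred log2 profiles that differed by 0.21 (root mean square over the 6 arrays), and each differed from the dim one by 0.60 and 0.59. Both bright ones are annotated to the same sequence record, so they are not independent measurements. The second is also of the kind that Affymetrix marks as matching several transcripts.

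The nontransgenic salt change of Cht8 by the first bright probe set was 0.72 at 20 min and 1.52 at 3 h on the log2 scale, and the transgenic one was -1.95 and -0.95. These opposite changes gave differences of response of -2.67 and -2.47, which were 38th and 120th lowest of 28629. With the second bright probe set they were -2.20 and -2.69. The dim probe set gave smaller differences of -0.56 and -0.68. Its 3 h changes had the same sign, 1.03 in nontransgenic and 0.34 in transgenic leaves. By the first bright probe set the shared salt changes, where the genotypes offset each other, were -0.61 ± 0.60 at 20 min and 0.28 ± 0.60 at 3 h. Neither passed (limma adjusted p = 0.744 and 0.833), and both signs turned when single arrays were left out.

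The genotype difference of Cht8 was -1.44 ± 0.49 for the first bright probe set, -1.55 ± 0.47 for the second and -0.79 ± 0.31 for the dim one. None passed the threshold (limma adjusted p = 0.0867, 0.0632 and 0.121). By stage, the difference for the first bright probe set was 0.28 before treatment, -2.40 at 20 min and -2.19 at 3 h. Without either array from before treatment, both bright probe sets were called lower, at -2.30 and -2.37 (adjusted p from 8.68e-04 to 0.00181).

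**Figure D2:**
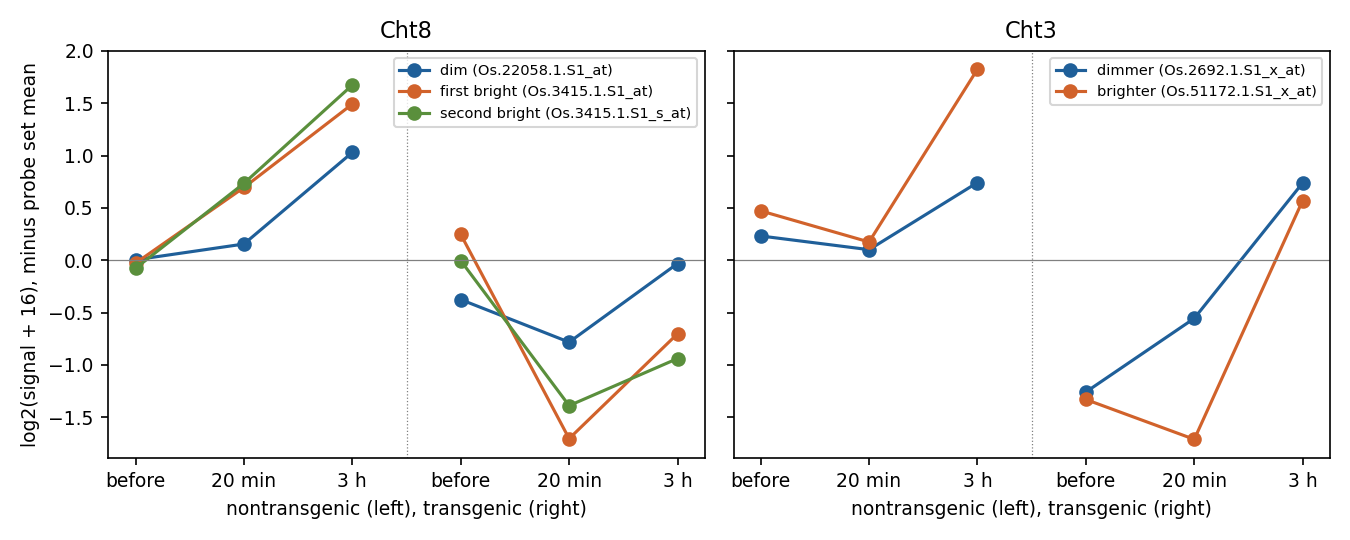
Log2(signal + 16) minus the mean of the probe set, for the 3 probe sets of Cht8 and the 2 of Cht3, with nontransgenic arrays left of the dotted line and transgenic arrays right of it. The 2 bright Cht8 probe sets run close together, and the 2 Cht3 probe sets part at 3 h in nontransgenic and at 20 min in transgenic leaves.

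Cht3 was lower in transgenic leaves and rose at 3 h by its brighter probe set. On the brighter probe set the nontransgenic signal was 279 before treatment, 224 at 20 min and 736 at 3 h. In transgenic leaves it was 68.5, 48.9 and 299. The transgenic array was lower at each stage, although the transgenic 3 h signal reached above the nontransgenic ones of the earlier stages.

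The Cht3 genotype difference by this probe set was -1.65 ± 0.20 (limma adjusted p = 0.00308), negative in 3 of 3 pairs. The ratio of nontransgenic to transgenic signal was 4.07 before treatment, 4.58 at 20 min and 2.46 at 3 h. The 3 h salt change was 1.63 ± 0.25 (limma adjusted p = 0.0179), made of 1.35 in nontransgenic and 1.90 in transgenic leaves. This call was lost without the nontransgenic or the transgenic array from before treatment (adjusted p = 0.0785 and 0.115), without the transgenic 3 h array (0.0751) and without the intensity trend (0.0828). At 20 min the changes were -0.30 and -0.38.

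The dimmer Cht3 probe set gave a weaker contrast. Its signals were 207, 188 and 302 in nontransgenic and 63.3, 113 and 301 in transgenic leaves, so the genotypes were nearly equal at 3 h. Its genotype difference was -0.72 ± 0.30 and its 3 h change 1.25 ± 0.36, and neither passed (limma adjusted p = 0.144 and 0.107). Both probe sets are of the kind that Affymetrix marks as able to cross-hybridise with similar transcripts. Their centred profiles differed by 0.66 (root mean square, log2), and averaged per gene the genotype difference was -1.18 and the 3 h change 1.44, both called (adjusted p = 0.0168 and 0.0418).

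Cht6 had nearly the same signals in both genotypes and rose at 20 min. Its signal in nontransgenic leaves was 552 before treatment, 1505 at 20 min and 799 at 3 h. In transgenic leaves the corresponding values were 578, 1594 and 645. In each genotype the 20 min array was the highest and the array before treatment the lowest.

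The 20 min change of Cht6 was 1.43 ± 0.16 (limma adjusted p = 0.0228), with 1.42 in nontransgenic and 1.44 in transgenic leaves, or 2.73 and 2.76 times the signal before treatment. The difference of response was 0.02. This call was lost without the nontransgenic array from before treatment (adjusted p = 0.135), the transgenic one (0.109) or the transgenic 20 min array (0.102), and without the intensity trend (0.186). At 3 h the change was 0.34 ± 0.16 and did not pass (adjusted p = 0.292). The genotype difference was -0.05 ± 0.13 (adjusted p = 0.822), and by stage it was 0.07, 0.08 and -0.30.

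**Figure D3:**
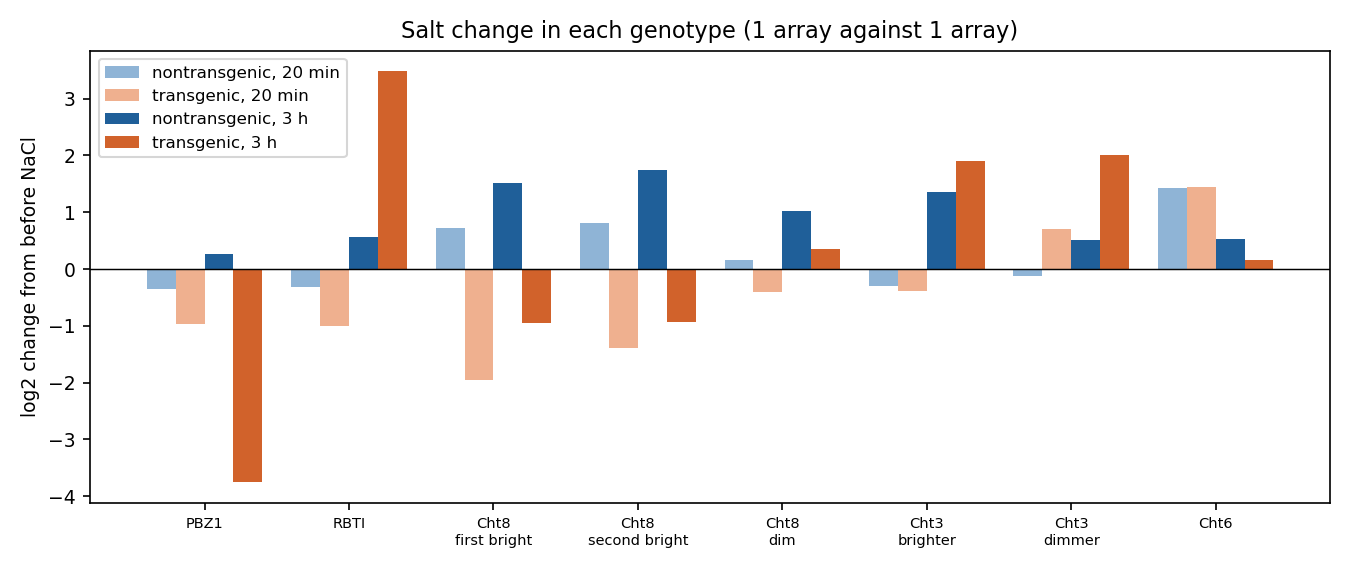
Log2 change of signal from before treatment for each of the 8 probe sets, with pale bars for 20 min and dark bars for 3 h, blue for nontransgenic and orange for transgenic leaves; each bar is 1 array against 1 array and has no error. Cht8 bars point up in nontransgenic and down in transgenic leaves for both bright probe sets, PBZ1 reaches -3.75 and RBTI 3.48 in transgenic leaves at 3 h, and Cht6 stands at 1.42 and 1.44 at 20 min.

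Across the 5 genes, the genotype contrast was negative for 8 of 8 probe sets, where 49.6% of all tested probe sets were negative. In 3 probe sets (PBZ1, RBTI and the dim one of Cht8) every transgenic array lay below every nontransgenic array, against 14.6% of all. For the dim Cht8 probe set the closest signals were 42.4 and 41.0. Its transgenic mean of 5.47 was below the filter of 5.53, and it passed through its nontransgenic mean of 6.26, which favours a negative contrast. Before treatment 4 of 8 probe sets were at least 2-fold lower in transgenic leaves, of PBZ1, RBTI and Cht3, against 8.12% of all. The number was 5 at 20 min and 6 at 3 h, against 7.78% and 8.05%. Responses that differed at least 2-fold between the genotypes numbered 2 of 8 at 20 min, both of Cht8, against 9.81% of all. At 3 h they numbered 5 of 8, of 4 of the 5 genes, against 12.6%. Cht3 counted there only by its dimmer probe set, at a log2 difference of response of 1.49, while its brighter one stood at 0.55. Salt changes of opposite sign were seen in 4 of 8 probe sets at 20 min and 3 of 8 at 3 h, against 38.1% and 36.4% of all. Probe sets of 1 gene share their transcript, so these counts are not over independent items. The genes were also picked with earlier results of these data known, so the shares describe them and are no test.

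The wider chitinase family was read through the same gene table. Of 15 genes named as chitinases there, 13 had a probe set, and 4 of these (Cht9, Cht7, RIXI and LOC4351188) stayed below the filter with no signal above 20.9. Of the 9 tested, 5 were lower in transgenic leaves and none higher: Cht3 and 4 of the 6 that are not among the genes above. Among all tested probe sets 10.6% were called lower and 9.94% higher. The median genotype difference over the 9 was -1.01, with 9 of 9 negative, beside 0.00 for all probe sets. Genes that pass the filter are the brighter part of the family, so these 9 do not stand for all 15. The list was chosen with earlier results of these data known, so its counts are no test.

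Cht11 (LOC4331519) had the largest genotype difference of the family, -2.67 ± 0.11 (limma adjusted p = 5.71e-05). Its signals were 7708, 11527 and 7783 in nontransgenic and 1210.2, 2024 and 1072 in transgenic leaves, before treatment, at 20 min and at 3 h. Every transgenic array was far below every nontransgenic one. The genotype difference of Cht1 (LOC4342115) was -1.44 ± 0.16, that of Rcb4 (LOC4348631) -1.01 ± 0.09 and that of Cht10 (LOC4325148) -0.64 ± 0.13 (adjusted p = 0.00216, 9.90e-04 and 0.0197). The call of Cht10 was lost without either 20 min array (adjusted p up to 0.110) and without the intensity trend (0.0757). Cht4 and Cht5, with signals between 29.6 and 122, stood at -0.63 and -0.71 and did not pass (adjusted p = 0.267 and 0.266).

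In NaCl, 1 of the 9 chitinase genes rose at 20 min, Cht6, and 2 rose at 3 h, Cht3 and Cht1, against 0.789% and 3.44% of all tested probe sets called higher. The list's median change was -0.09 at 20 min and 0.34 at 3 h. The 3 h change of Cht1 was 0.95 ± 0.20 (limma adjusted p = 0.0454). The nontransgenic signals were 2859 before treatment and 4191 at 3 h, and the transgenic ones 794 and 2037. This call was also lost with no filter (0.0784), an added 1 in place of 16 (0.0531), without the intensity trend (0.164) and without 3 of the 6 arrays: the nontransgenic or transgenic one from before treatment (0.0566 and 0.239) or the transgenic 3 h one (0.141).

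**Figure D4:**
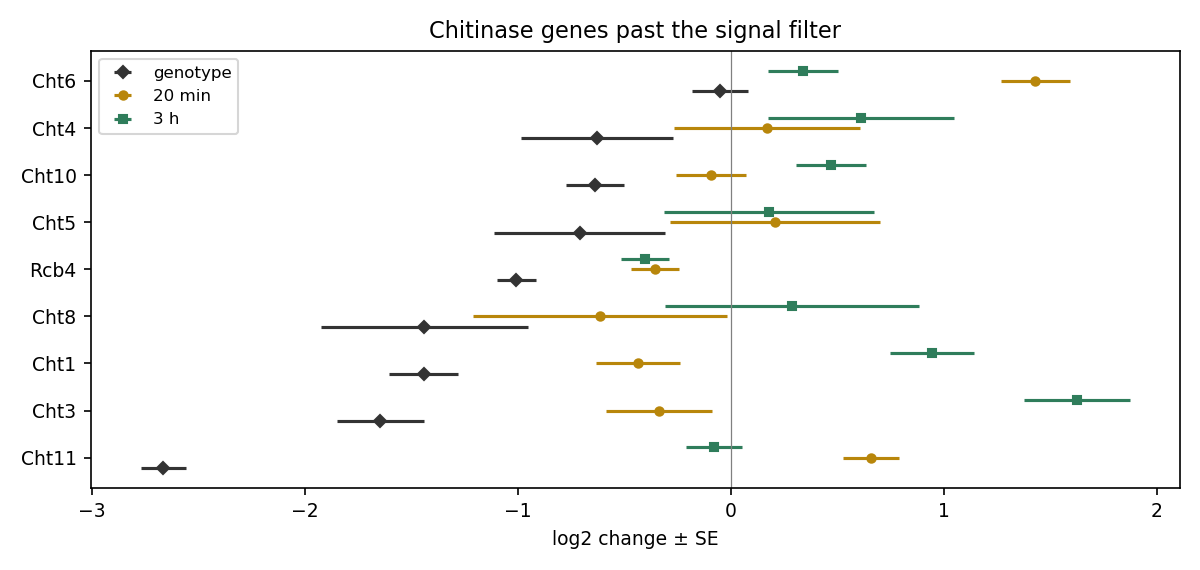
Log2 change ± SE of the limma fit for the 9 chitinase genes past the signal filter, with diamonds for genotype (transgenic minus nontransgenic), circles for 20 min and squares for 3 h in NaCl, 1 probe set per gene. All 9 diamonds lie left of 0, from -2.67 for Cht11 to -0.05 for Cht6, and Cht6 stands alone with a 20 min change of 1.43.

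Lists of genes for chitin sensing and salicylate signalling were matched by gene name and read in the same way. Of 11 genes matched by name to a chitin signalling list, among them receptors, kinases and an oxidase, 0 were called for genotype by limma. Several of the 11 share a synonym such as CERK1, MPK3 or MPK6, so not all of them need act in chitin signalling. In 2 the unadjusted limma p was under 0.05, both lower in transgenic leaves. These were MPK5 (LOC4332475) at -0.82 ± 0.31 and CERK1 (LOC4346173) at -0.32 ± 0.12. The median genotype difference of the 11 was 0.05. At 3 h RBOHB (LOC4326027), which makes superoxide at the plasma membrane, rose by 1.59 ± 0.27, and CEBIP, the chitin receptor, fell by 1.26 on the log2 scale with an SE of 0.24 (limma adjusted p = 0.0241 and 0.0353). The call of CEBIP was lost with no filter (adjusted p = 0.0632). Both calls were lost without the intensity trend (adjusted p = 0.124 and 0.151) and in 3 of the 6 fits that left out an array, among them those without either array from before treatment. Of 7 genes matched by name to a salicylate signalling list, 2 were lower in transgenic leaves, against 10.6% of all tested probe sets. The median genotype difference of the 7 was -0.14. NH1 (LOC4327315), the rice NPR1 regulator, stood at -0.41 ± 0.11 and SGT1 (LOC4326682) at -0.52 ± 0.13 (limma adjusted p = 0.0415 and 0.0367). The name SGT1 is used for more than 1 defence gene, and whether this one carries salicylate signals was not tested. The calls of NH1 and SGT1 were each kept in 2 of the 6 fits that left out an array, those without a 3 h array. Those 2 fits gave the same estimate for a gene, so they are not separate checks. Both were lost with no filter (adjusted p = 0.0654 and 0.0803) and without the intensity trend (0.117 and 0.125), and that of NH1 also with equal 75th percentiles (0.0654).

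The genes beside the 5 members in the RefSeq table were examined after member values had been seen. Of 50 neighbours, 5 on each side of a member, 32 had a probe set and 28 were tested. For genotype 9 of the 28 were called lower and 2 higher, against 10.6% and 9.94% of all tested probe sets. Among the 9, LOC4326000 beside RBTI and LOC4352496 beside PBZ1 had transgenic means below the filter of 5.53, at 4.34 and 4.98. They were tested because of their nontransgenic means, 11.3 and 6.27, which favours a lower call. LOC4352496 lost its call whenever 1 array was left out. Cht1, described above, is the next gene after Cht3, and both were lower in transgenic leaves.

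Beside RBTI, LOC9268662 (pinA), the gene just before it, had nontransgenic signals of 18545, 15773 and 26185 and transgenic signals of 196, 254 and 141. Its genotype difference was -6.57 ± 0.26 (limma adjusted p = 5.50e-05). LOC4326000, 2 places before RBTI, had signals of 3356, 1335 and 3553 in nontransgenic leaves and of 1.31, 1.46 and 11.8 in transgenic leaves. These transgenic signals lie below the added 16, so the size of its genotype difference depends on that offset: it was -6.96 with 16, -9.24 with 1 and -5.24 with 64, called each time. Unlike RBTI, both of these genes had low transgenic signals at 3 h as well, and no transgenic array came near a nontransgenic one.

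On the PBZ1 side, LOC4352487 had signals of 18489, 7514 and 21462 in nontransgenic and 558, 481 and 449 in transgenic leaves. LOC4352488 had signals of 9776, 2978 and 9394 in nontransgenic and 619, 145 and 195 in transgenic leaves. Their genotype differences were -4.82 ± 0.28 and -4.55 ± 0.28 (limma adjusted p = 1.84e-04 and 2.37e-04). LOC4352490, the gene just before PBZ1, was higher in transgenic leaves, by 1.16 ± 0.20 (adjusted p = 0.00979). Whether probes of these neighbours share sequence with those of the members was not tested.

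**Figure D5:**
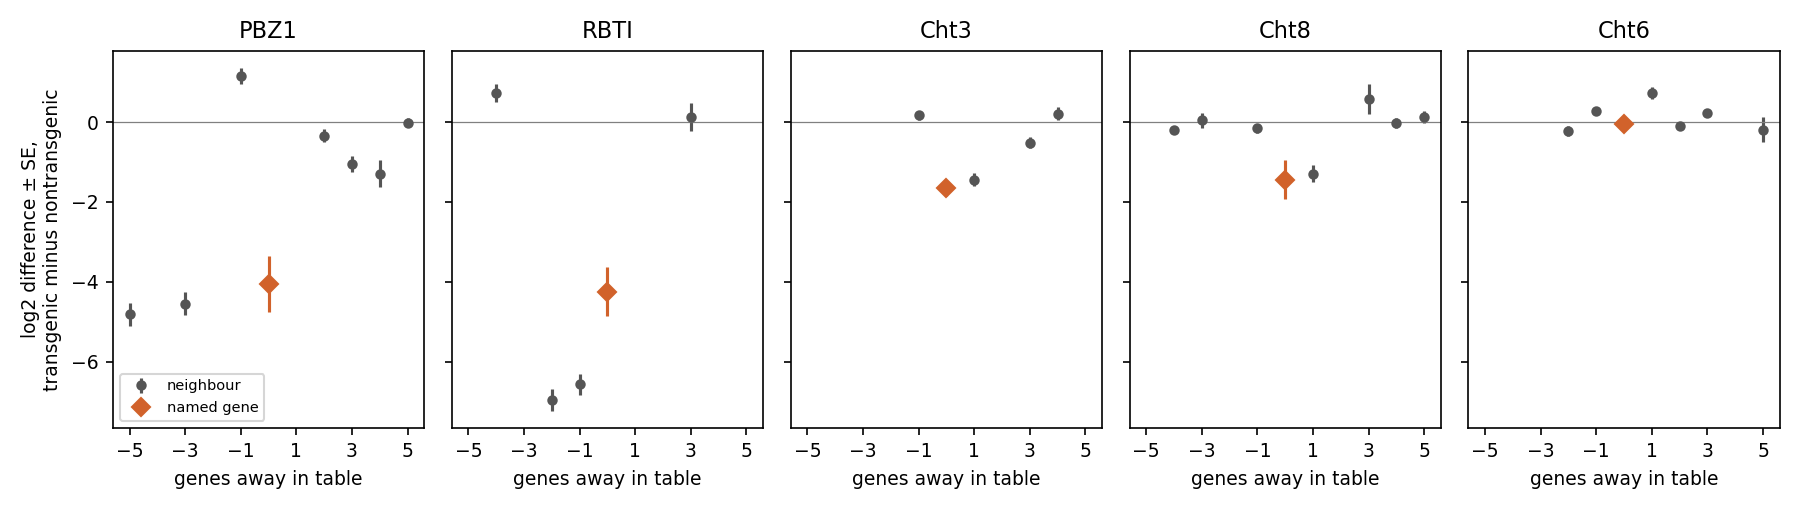
Log2 genotype difference (transgenic minus nontransgenic) of the 5 members and of the tested genes up to 5 places away on each side in the RefSeq gene order. Low values stand at RBTI's side, -6.96 (a size set by the added 16) and -6.57, and at PBZ1's side, -4.82 and -4.55, while the neighbours of Cht6 include a gene at 0.74.

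The genes with the profile most like each member were ranked by the root mean square difference of centred log2(signal + 16) profiles over the 6 arrays. Among 73 genes with a curated symbol, the closest to Cht6 were ASA2 (0.35), WRKY51 (0.39) and CPK19 (0.42), and the closest to Cht3 were HIRL1 (0.64), CRO1 (0.67) and GA20OX3 (0.77). For Cht8 they were LPR1 (0.64), MHZ4 (0.74) and HCT1 (0.76). The nearest to both PBZ1 and RBTI was HCT1, at 1.50 and 1.77. Next came LPR2 (1.69) and TGAL4 (1.86) for PBZ1, and CRO1 (1.95) and HIRL1 (2.04) for RBTI. These distances grow with a member's own root mean square spread, which was 0.62 for Cht6, 1.01 for Cht8, 1.20 for Cht3, 2.32 for PBZ1 and 2.54 for RBTI, so they do not rank the members by closeness of match. In a pool of 2495 genes with any symbol or synonym, chosen after seeing the data, Cht1 was the second closest to Cht3, at 0.33. PBZ1 then lay nearest to CYP71Z7 (0.96) and Cht6 to SCL7 (0.11).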

How the data were processed

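Leaf RNA was measured on 6 arrays, 1 per genotype and stage, grouped by sample titles. The deposited values are log2 signals, made with MAS5 per the submitters' processing notes; version and genome build are not given in the sources used here. The 2% trimmed mean of the linear signal was 500.1 on every array. Values were returned to linear signals, 16 was added, and log2 taken. Rice probe sets with a mean at or above the median (5.53) were kept. Genotype and stage were fitted with limma 3.58.1 (R 4.3.3, lmFit, eBayes with intensity trend). The fit had 2 residual degrees of freedom and a median residual SD of 0.20 (log2). It was tested on simulated additive data, which cannot show how it treats genes that depart from additivity. Of 57258 rice probe sets, 22436 had 1 gene, 95 several and 34727 none in the platform annotation. All member probe sets are described, every called chitinase is named, and so are the 2 genes with the largest change among those called in other lists, and the 3 curated genes nearest to each member. Members and lists were chosen with earlier results of these data known. An actin and 2 cellulase genes matched by name were dropped from lists after the files were seen, which left the beta-1,3-glucanase list empty. Offset, filter, scaling, intensity trend, probe set averaging and each array were varied.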

Additional observations from a re-analysis of the deposited data

Results flagged for a closer look

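In 7 of 16 member changes the genotypes had salt changes of opposite sign, each from 1 array against 1 array; the difference was not tested. For PBZ1 at 3 h the nontransgenic log2 change was 0.26 and the transgenic one -3.75, a difference of -4.01. For the first bright Cht8 probe set the changes were 0.72 and -1.95 at 20 min (difference -2.67) and 1.52 and -0.95 at 3 h (difference -2.47). For the second bright Cht8 probe set they were 0.81 and -1.39 at 20 min (difference -2.20) and 1.75 and -0.94 at 3 h (difference -2.69). The dim Cht8 probe set had 0.15 and -0.41 at 20 min (difference -0.56). The dimmer Cht3 probe set had -0.13 and 0.70 at 20 min (difference 0.83). Opposite signs were common: they held for 38.1% of all tested probe sets at 20 min and 36.4% at 3 h.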

How the results depend on the processing

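Of 327 recomputed member changes, 285 kept their direction and side of the threshold, 9 lost a call, 15 gained one and 18 changed sign; none of those 18 had been called. Of 260 recomputed changes of the other named genes and of neighbours, each called at first, 200 stayed called, 60 lost the call and none changed sign. Over all probe sets, 5889 were called for genotype, 271 at 20 min and 1722 at 3 h. Without the intensity trend the counts were 3151, 0 and 0 in limma, where 3103 at 20 min and 5536 at 3 h had an unadjusted p under 0.05, and with no filter they were 152 at 20 min and 992 at 3 h. Leaving out 1 array gave 2999 to 6082 for genotype, 27 to 761 at 20 min and 372 to 2130 at 3 h. Scaling to the spike-ins gave 2097 higher and 3976 lower for genotype (34.5% higher), against 2845 and 3044 (48.3%). Equal 75th percentiles moved it the other way, to 3369 higher and 2629 lower (56.2%), and at 3 h gave 880 and 933 against 984 and 738. Member probe sets called numbered 3 for genotype (2 without the trend, 4 with spike-ins, 3 to 5 with 1 array left out), 1 at 20 min (0 without the trend, 0 to 1) and 1 at 3 h (0 without the trend, 0 to 4).

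Values that changed sign are on the log2 scale, and the cause was not tested. With probe sets averaged, the dimmer Cht3 probe set was -0.026 at 20 min, and with equal 75th percentiles the Cht6 genotype difference was 0.012. The other sign changes came with 1 array left out. The Cht6 genotype difference then ranged from -0.12 to 0.074. At 20 min the range was -1.81 to 0.50 for PBZ1, -1.74 to 0.42 for RBTI, -0.29 to 0.87 for the dimmer Cht3 probe set, and for Cht8 -1.90 to 0.67 (first bright), -1.51 to 0.93 (second bright) and -0.44 to 0.18 (dim). At 3 h it was -3.60 to 0.11 for PBZ1, and for Cht8 -1.001 to 1.57 (first bright) and -0.81 to 1.63 (second bright). Without the nontransgenic 3 h array the 3 h change was -3.60 for PBZ1 and 3.65 for RBTI. These 2 values rest on the single transgenic 3 h array, so that fit holds no spread at 3 h.

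No paired analysis was possible because the groups share only 1 replicate number; the fit already compares the genotypes within each stage. With no replicate, any lasting difference between the 2 sets of seedlings cannot be told apart from the transgene. PBZ1 lies near the brightest signals, and compression there was not tested.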
